A study of Rattus norvegicus with 12 samples.

Results

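The comparison described here sets 3 Model libraries against 3 Sham libraries of rat cerebral cortex, 6 of the 12 RNA sequencing libraries of a study of stroke treatment, and covers 12884 of 17268 genes, those with enough counts to be tested. All rats were adult male Sprague Dawley rats, with 1 library per rat. Sham rats were operated on but given no clot. In Model rats, clotted blood of a donor rat was injected into the middle cerebral artery to cause an embolic stroke, and rats of both groups received neither rt-PA (recombinant tissue plasminogen activator) nor acupuncture. A fall in cortical blood flow was the sign by which a successful stroke was recognised. The age of the stroke at tissue collection and the part of the cortex that was taken for RNA are not given in the sources used here.

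Sudden closure of the middle cerebral artery deprives the cortex it feeds of oxygen and glucose, so that ion gradients fail, glutamate is released and cells at the core die. Surviving neurons and glia switch on stress, immediate early and growth genes, astrocytes become reactive, microglia leave their resting state, and activated vessels and glia release chemokines that draw leukocytes from the blood. In bulk tissue, fewer cells of a type and less RNA per cell cannot be told apart, so lower marker counts below are levels of RNA and not numbers of cells.

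Total counts lay between 11678450 and 13616935 per library, and 3 counts stood for 0.225 to 0.258 CPM (counts scaled to a common library size, normalised by the TMM method of edgeR). The first principal component of the 500 most variable genes held 89.8% of the variance and placed the Sham libraries at -40.3, -40.5 and -41.2 and the Model libraries at 47.5, 41.9 and 32.6. Model replicate 3 thus lay nearest to Sham, and its Spearman correlation with the Sham libraries was 0.922, against 0.889 to 0.891 for Model replicate 1. At 101 genes Model replicate 3 lay inside the Sham range while the other Model libraries both lay over 1.5-fold outside it on the same side, against 27 such genes for Model replicate 1 and 24 for Model replicate 2. Every list below was therefore also fitted without Model replicate 3, and the counts without it are given for those lists or at the end. Genes with next to no reads in Sham passed the filter on low counts through Model alone, where they were high, so that for them a rise was partly fixed by the filter.

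Differentially expressed genes (DEGs) were those past an adjusted p of 0.05 in edgeR's quasi-likelihood test whose log2 fold change was above 1 or below -1. Of the genes tested, 1215 (9.43%) were DEGs higher in Model and 1550 (12%) were DEGs lower in Model, which together made 21.5%. At the adjusted p alone, 27.3% were higher and 26.6% lower, and at 63.5% the ranges of both groups did not overlap. Without Model replicate 3, 1330 genes (10.2%) were higher and 1803 (13.8%) lower of 13070 tested, and 2625 of the 2765 DEGs were called again. The median log2 fold change of all genes tested was 0.01. Below, "rose" and "fell" mean DEGs unless the adjusted p alone is named, values run from replicate 1 to replicate 3 in each group, and ± gives the standard error of a log2 fold change (n = 3 per group). A bare number in brackets after a gene is its log2 fold change. Gene lists together held 864 genes, of which 802 were in the count table and 741 were tested. Counts of list genes are to be read against the shares of all genes tested.

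The largest rise was that of Ccl2, the chemokine that draws monocytes out of the blood. It had 0, 0 and 0 counts in Sham and 2101, 3275 and 1761 counts in Model, at least 799-fold higher against 3 counts per Sham library (adjusted p = 2.83e-05). Il11, a cytokine of the interleukin-6 family, had 0, 0 and 0 counts in Sham and 1093, 677 and 193 counts in Model, at least 215-fold higher (adjusted p = 0.000614). Both genes were without a single read in Sham, and Model replicate 3 had the lowest count of Model for each. Pax1, a paired box transcription factor known from the developing skeleton and thymus, had 0, 0 and 0 counts in Sham and 1010, 874 and 792 counts in Model, at least 297-fold higher. Pou4f3, a transcription factor of inner ear hair cells, had 0, 2 and 1 counts in Sham and 985, 642 and 474 counts in Model, at least 231-fold higher. H19, an imprinted long non-coding RNA abundant in the fetus, had 0, 3 and 2 counts in Sham and 795, 981 and 839 counts in Model, at least 292-fold higher. These 3 genes of other tissues or of development had at most 3 counts in any Sham library and between 474 and 1010 in each Model library. The other genes among the 10 largest rises were Tnfsf18 (at least 68.2-fold higher), a ligand of the tumour necrosis factor family, Itga2 (at least 55.4-fold), an integrin chain that binds collagen, Ccl7 (at least 259.7-fold) and Cxcl1 (at least 76-fold), chemokines for monocytes and neutrophils, and Fam83g (at least 75.5-fold).

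Among the 10 largest falls, Gjb6, the astrocyte gap junction protein connexin 30, had 72.9, 101 and 119 CPM in Sham and 0.683, 2.59 and 7.98 CPM in Model (log2 fold change -4.71 ± 0.57, adjusted p = 0.000291, -5.92 without Model replicate 3). Tril, a Toll-like receptor partner found in glia, had 169.6, 189.7 and 129 CPM in Sham and 2.43, 7.35 and 14.1 CPM in Model (log2 fold change -4.36 ± 0.47, adjusted p = 0.000173, -5.08 without Model replicate 3). The nearest libraries of the groups lay 9.14-fold apart for Gjb6 and 9.17-fold apart for Tril, and Model replicate 3 was the highest of Model. Neurod1, a proneural transcription factor, had 18.8, 12.4 and 11 CPM in Sham and 1.06, 0.668 and 0.651 CPM in Model (log2 fold change -4.12 ± 0.33, adjusted p = 4.29e-05). Slc22a8, an organic anion transporter of brain barriers, had 14.7, 20.5 and 17.3 CPM in Sham and 0.607, 1.17 and 0.814 CPM in Model (log2 fold change -4.33 ± 0.28, adjusted p = 1.83e-05). For these genes Model replicate 3 lay among the other Model libraries or below them. Btbd17 (-4.58, -5.73 without Model replicate 3), Nat8f3 (-4.06, -5.5 without Model replicate 3), Alb (-3.99, -5.29 without Model replicate 3), the gene of serum albumin, and Rasgrp2 (-3.94), a Ras family activator, fell too, all without overlap. Syndig1l (-4.45, -3.76 without Sham replicate 2) and Rxrg (-3.99), which mark the striatum below the cortex, complete the 10 and are taken up with the striatal list.

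**Figure D1:**
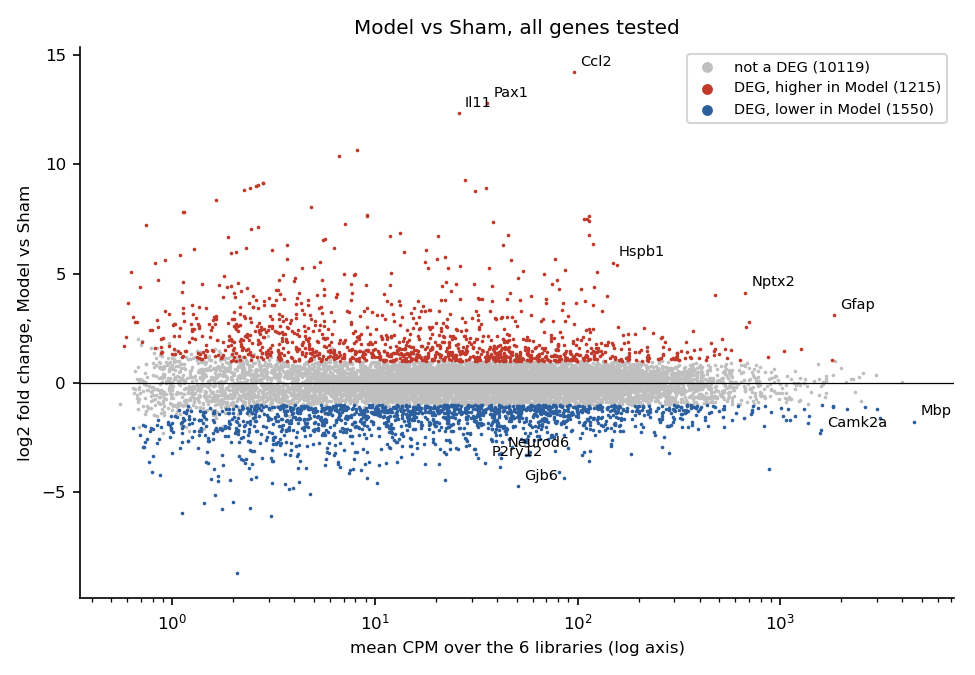
Each point is 1 of the 12884 genes tested, with the mean CPM over the 6 libraries on a log axis and the fitted log2 fold change of Model vs Sham on the other axis, red for the 1215 DEGs higher in Model and blue for the 1550 lower. The highest fitted values belong to genes with 0 to 3 counts in each Sham library, such as Ccl2, and do not measure the size of a rise.

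Markers of excitatory neurons, which define cortex, were present in all 6 libraries and lower in Model, while 2 of 14 markers shared by all neurons reached both the adjusted p and the fold threshold. In the excitatory list, 0 of 14 genes tested rose and 7 fell (median log2 fold change -0.94, 16 listed), and 12 of the 14 were lower at the adjusted p alone. Neurod6, a transcription factor of pyramidal neurons, had 67, 77 and 82.8 CPM in Sham and 8.2, 8.94 and 7.33 CPM in Model (log2 fold change -3.21 ± 0.13, adjusted p = 4.31e-06). Cux2 of the upper layers (-1.72) and Tbr1 of the deep layers (-1.7) fell with it. Slc17a7, the vesicular glutamate transporter that defines these cells, had 1435, 1284 and 1440 CPM in Sham and 720.4, 731 and 826 CPM in Model (log2 fold change -0.87 ± 0.092, adjusted p = 0.000159), a drop below the fold threshold but without overlap. Lmo4, the other most abundant member, overlapped (log2 fold change -0.16, adjusted p = 0.283). Without Model replicate 3 the median of the excitatory list was -1.14, with 8 genes falling.

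Among the genes of all neurons, 0 of 14 genes tested rose and 2 fell (median log2 fold change -0.14, 14 listed), a share close to the 12% of all genes, and at the adjusted p alone 5 were lower and 2 higher. Without Model replicate 3, 1 fell. The genes that fell were Rbfox3, the gene of the NeuN protein (log2 fold change -1.04 ± 0.22, adjusted p = 0.00495), and Map2, a dendritic microtubule protein (log2 fold change -1.02 ± 0.11, adjusted p = 0.000182), and both sat at the fold threshold. Rbfox3 was under it without Sham replicate 3 or Model replicate 1, and Map2 without Sham replicate 1 or Model replicate 3. Snap25, a core protein of vesicle fusion, had 1955, 2084 and 2594 CPM in Sham and 2525, 2722 and 2822 CPM in Model, ranges that overlapped (log2 fold change 0.28 ± 0.12, adjusted p = 0.0719). Some genes of the inhibitory neuron list went the other way, but most did not pass the adjusted p. In that list 3 of 14 genes tested rose and 1 fell (median log2 fold change 0.11, 16 listed), which became 5 and 1 without Model replicate 3. At the adjusted p alone 5 were higher and 1 lower, and 8 did not pass it. Npy, the gene of neuropeptide Y, had 23, 28.6 and 25.4 CPM in Sham and 196, 180.3 and 125 CPM in Model (log2 fold change 2.7 ± 0.18, adjusted p = 2.25e-05). Crh, the gene of corticotropin-releasing hormone (log2 fold change 1.69 ± 0.27, adjusted p = 0.00104), and Cck, the gene of cholecystokinin (log2 fold change 1.47 ± 0.13, adjusted p = 5.95e-05), rose as well. Gad1, which makes the transmitter GABA, was higher at the adjusted p alone (log2 fold change 0.87 ± 0.13, adjusted p = 0.000876) and a DEG without Model replicate 3. Calb2, the gene of calretinin, fell (log2 fold change -1.24 ± 0.28, adjusted p = 0.00624).

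Genes of the receiving side of the synapse fell more often than the 12% of all genes tested. Of postsynaptic scaffold and kinase genes, 2 of 27 genes tested rose and 12 fell (median log2 fold change -0.79, 28 listed). Camk2a, the kinase that sets the strength of excitatory synapses, had 2801, 2601 and 2477 CPM in Sham and 583, 466 and 554 CPM in Model (log2 fold change -2.3 ± 0.11, adjusted p = 6.02e-06). All Model libraries lay between 466 and 583 CPM, a narrow range in which Model replicate 3 did not stand apart. Iqsec2 (-2.18) and Dlgap3 (-1.8), scaffold-linked proteins of the excitatory synapse, fell with it, as did Dlg4, the gene of PSD-95 (log2 fold change -1.05 ± 0.12, adjusted p = 0.000189), which was just under the fold threshold without Sham replicate 2, Model replicate 2 or Model replicate 3. Homer3 (1.71), a scaffold of metabotropic receptors, and Gphn (1.23), the scaffold of inhibitory synapses, rose. Striatal markers, given with other tissue below, were lower in Model too, and their part in the falls of synaptic genes was not tested.

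Of glutamate receptor subunits, 1 of 21 genes tested rose and 9 fell (median log2 fold change -0.83, 22 listed). Gria2, the AMPA receptor subunit that blocks calcium entry, had 1076, 1020 and 1026 CPM in Sham and 432, 424 and 402 CPM in Model (log2 fold change -1.31 ± 0.077, adjusted p = 1.38e-05). Its groups lay far apart, with each within a narrow range. Grm3 (-2.47), a metabotropic receptor of astrocytes and neurons, and Grin2c (-2.42), an NMDA receptor subunit, fell, Grm7 (1.29) was the gene that rose, and Grin1, the subunit common to NMDA receptors, was lower at the adjusted p alone (log2 fold change -0.73 ± 0.10, adjusted p = 0.000611). Of GABA receptor subunits, 0 of 14 genes tested rose and 4 fell (median log2 fold change -0.80, 14 listed), and 12 of 14 were lower at the adjusted p alone. Gabrd (log2 fold change -1.75 ± 0.38, adjusted p = 0.00531, -2.47 without Model replicate 3), of receptors outside the synapse, Gabrg1 (-1.38) and Gabrb2 (-1.37) fell, and the abundant Gabbr1 (-0.47, adjusted p = 0.00136) stayed under the fold threshold.

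Of vesicle release genes, 0 of 31 genes tested rose and 3 fell (median log2 fold change -0.34, 32 listed), against 12% of all genes falling. At the adjusted p alone 15 of the 31 were lower and 3 higher, against 26.6% and 27.3% of all genes. Cplx2, a complexin that clamps vesicle fusion, had 560.2, 706 and 652 CPM in Sham and 124, 129 and 193 CPM in Model (log2 fold change -2.11 ± 0.18, adjusted p = 5.83e-05), with Model replicate 3 the highest of Model. Cplx3 (-1.54) and Unc13c (-1.25) fell too, the last with the call lost without Sham replicate 2. Syp, the vesicle membrane protein synaptophysin, had a log2 fold change of -0.093 (adjusted p = 0.42). Of voltage-gated ion channels, 1 of 34 genes tested rose and 11 fell (median log2 fold change -0.69, 35 listed). Cacna1h (-2.12), a T-type calcium channel, Kcnd2 (-2.02) and Kcnt2 (-1.94), potassium channels, fell, and Hcn4 (log2 fold change 2.54 ± 0.49, adjusted p = 0.00284), a pacemaker channel, rose. Scn2a, an abundant sodium channel, was lower at the adjusted p alone (-0.78, adjusted p = 0.000265), and Kcna1 did not pass it (0.51, adjusted p = 0.0538).

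Most genes that active neurons make for secretion and synaptic change rose. In the list of activity-regulated effectors, 13 of 18 genes tested rose and 1 fell (median log2 fold change 2.09, 18 listed). Nptx2, a pentraxin that clusters AMPA receptors, had 68.9, 61.7 and 86.2 CPM in Sham and 1281, 1348 and 1183 CPM in Model (log2 fold change 4.14 ± 0.14, adjusted p = 3.41e-06). Vgf, a neurosecretory peptide precursor, had 190.0, 187 and 150.0 CPM in Sham and 1369, 1174 and 1130 CPM in Model (log2 fold change 2.8 ± 0.13, adjusted p = 4.82e-06). Even the nearest libraries of the groups lay 13.7-fold apart for Nptx2 and 5.95-fold apart for Vgf. Ptgs2, the inducible cyclooxygenase, had 56.9, 54.4 and 53.5 CPM in Sham and 1375, 818 and 491 CPM in Model (log2 fold change 4.03 ± 0.35, adjusted p = 5.96e-05), and Inhba, a subunit of activin, rose furthest of the list (log2 fold change 5.01 ± 0.39, adjusted p = 3.83e-05). Rgs4, a brake on G protein signalling, rose (log2 fold change 1.21 ± 0.25, adjusted p = 0.00378), with the fold under the threshold without Model replicate 1. Nptx1, a relative of Nptx2, fell (log2 fold change -1.11 ± 0.26, adjusted p = 0.00704), under the fold threshold without Model replicate 1.

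**Figure D2:**
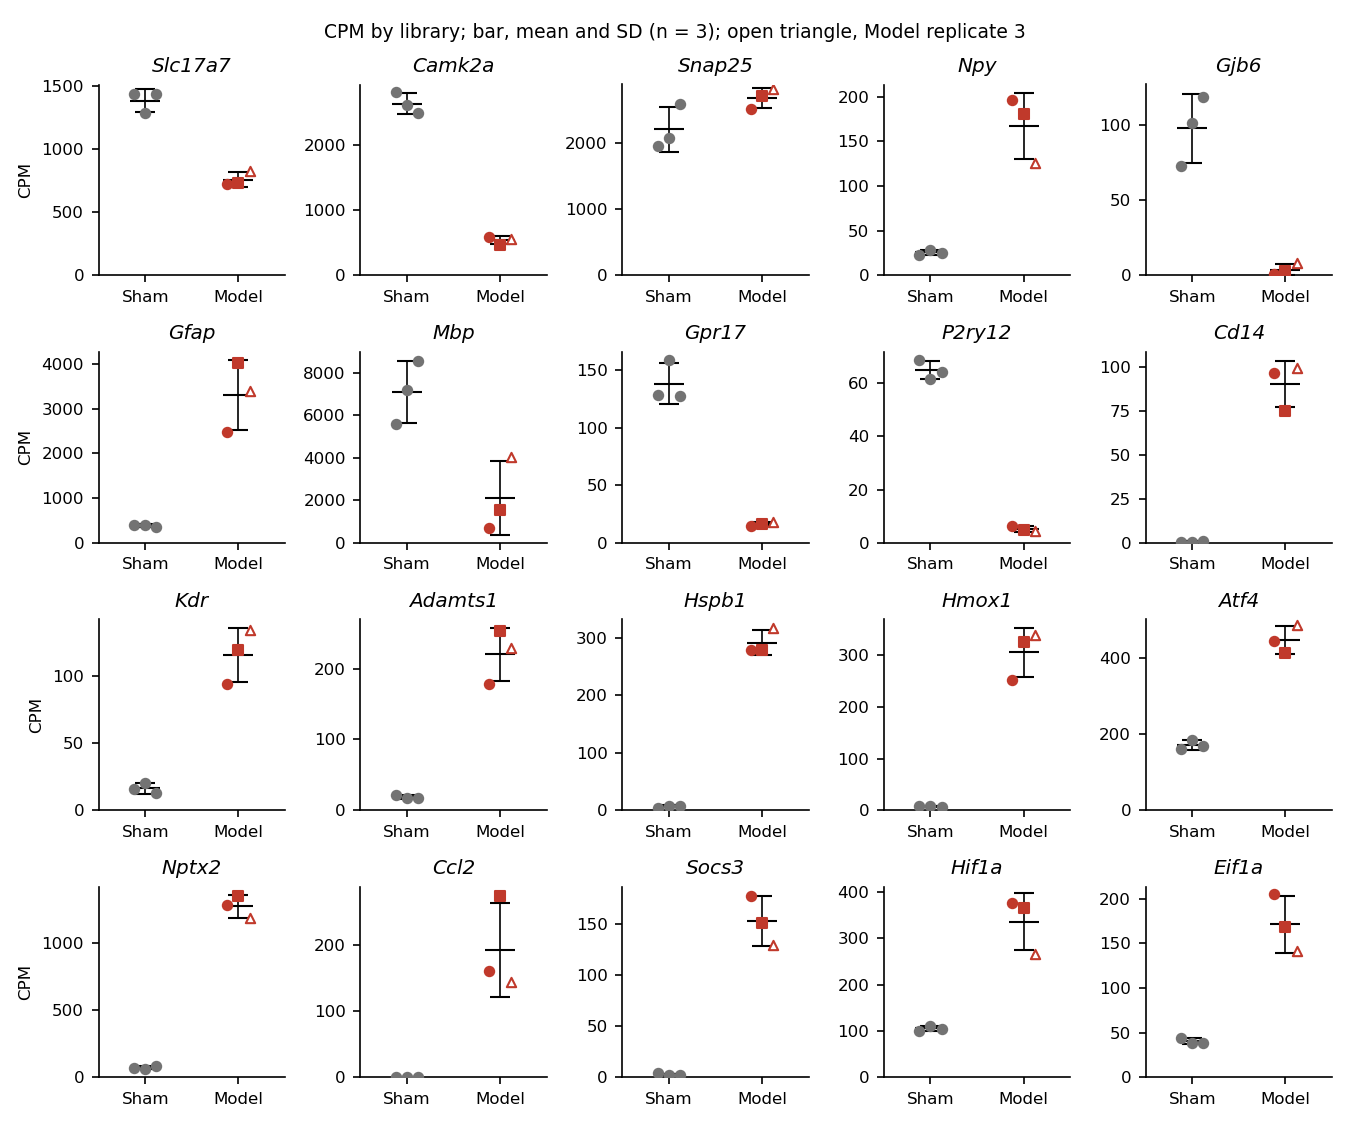
CPM of 20 genes in each library on linear axes that start at 0, Sham as grey points and Model as red points, with the mean and SD of each group (n = 3) and Model replicate 3 as an open triangle. Groups were apart in each panel but Snap25, and Model replicate 3 lay toward Sham for Mbp.

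Most astrocyte markers of resting cells fell and most of those of reactive cells rose. In the homeostatic list 0 of 16 genes tested rose and 13 fell (median log2 fold change -1.61, 16 listed). Kcnj10, the channel by which astrocytes take up potassium, had 349, 453 and 414 CPM in Sham and 44.1, 87.8 and 104 CPM in Model (log2 fold change -2.36 ± 0.28, adjusted p = 0.000265). Slc7a10 (-2.58), a transporter of serine and other small amino acids, fell alongside Gjb6. The most abundant members, Glul, the glutamine synthetase gene (log2 fold change -0.82 ± 0.20, adjusted p = 0.00917), and Slc1a3, a glutamate transporter (log2 fold change -0.71 ± 0.094, adjusted p = 0.000442), were lower at the adjusted p alone. Glul reached the fold threshold without Model replicate 3. In the reactive list 14 of 17 genes tested rose and 1 fell (median log2 fold change 3.1, 18 listed). Gfap, the intermediate filament of reactive astrocytes, had 391, 407 and 358 CPM in Sham and 2472, 4030 and 3406 CPM in Model (log2 fold change 3.1 ± 0.18, adjusted p = 1.21e-05). Timp1, an inhibitor of metalloproteases, had 2.15, 2.1 and 1.98 CPM in Sham and 228, 310.3 and 139 CPM in Model (log2 fold change 6.76 ± 0.35, adjusted p = 7.79e-06). The nearest libraries lay 6.08-fold apart for Gfap and 64.6-fold apart for Timp1, with Model replicate 1 lowest for Gfap and Model replicate 3 lowest for Timp1. Ptx3 (6.73), a secreted pentraxin, Cd44 (5.07), a hyaluronan receptor, and Stat3 (2.31), the transcription factor of cytokine signals, rose, and Cd109 fell (log2 fold change -1.06 ± 0.34, adjusted p = 0.027), a call lost without Sham replicate 1, Sham replicate 3, Model replicate 2 or Model replicate 3.

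Oligodendrocyte genes fell in both lists of the lineage, and in the myelinating list the size of the difference depended on Model replicate 3. Of the myelinating list, 0 of 13 genes tested rose and 11 fell (median log2 fold change -1.77, 14 listed). Mbp, myelin basic protein, had 5602, 7163 and 8525 CPM in Sham and 672, 1548 and 4040 CPM in Model (log2 fold change -1.77 ± 0.54, adjusted p = 0.0237, -2.68 without Model replicate 3). Model replicate 3 lay between the other Model libraries and Sham and did not reach the Sham range. The same order held for Ermn, a myelin-associated cytoskeletal protein, with 152, 175 and 199 CPM in Sham and 11.8, 33.8 and 45.7 CPM in Model (log2 fold change -2.53 ± 0.40, adjusted p = 0.00102). Aspa (log2 fold change -2.27 ± 0.34, adjusted p = 0.00084), which breaks down N-acetylaspartate, and Mal (log2 fold change -1.98 ± 0.69, adjusted p = 0.039, -3.35 without Model replicate 3) also fell. Mbp missed the adjusted p without Sham replicate 2, Sham replicate 3 or Model replicate 2, and Mal without Sham replicate 1, Sham replicate 2, Sham replicate 3 or Model replicate 2. Without Model replicate 3, 13 of 13 fell at a median of -2.22, whereas 7 fell without Model replicate 2 and 5 fell with all 12 libraries of the series in 1 fit. Of oligodendrocyte precursor genes, 0 of 11 genes tested rose and 7 fell (median log2 fold change -1.4, 12 listed), and without Model replicate 3 the median was -1.48 with 8 falling. Gpr17, a receptor of cells about to mature, had 128, 158 and 127 CPM in Sham and 14.2, 16.3 and 18.2 CPM in Model (log2 fold change -3.09 ± 0.14, adjusted p = 4.82e-06), an even fall in which Model replicate 3 did not stand apart. Bmp4 (-2.16), Pdgfra (-1.9), the growth factor receptor of precursors, and Tnr (-1.2), a matrix protein, fell with it.

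The purinergic receptors that mark resting microglia fell. In the homeostatic list 1 of 14 genes tested rose and 6 fell (median log2 fold change -0.76, 16 listed). P2ry12, the receptor by which resting microglia sense ATP, had 68.6, 61.8 and 64.4 CPM in Sham and 6.38, 4.84 and 4.31 CPM in Model (log2 fold change -3.64 ± 0.16, adjusted p = 4.31e-06). The highest Model library was 9.69-fold below the lowest Sham library. P2ry13 (-3.72) and Selplg (-3.04) fell too. Csf1r, the receptor microglia depend on, was lower at the adjusted p alone (log2 fold change -0.74 ± 0.15, adjusted p = 0.00405), and C1qc, of complement, rose (log2 fold change 1.03 ± 0.20, adjusted p = 0.00272), under the fold threshold without Sham replicate 1, Model replicate 1 or Model replicate 3. Of monocyte and macrophage genes, 9 of 15 genes tested rose and 0 fell (median log2 fold change 2.44, 18 listed), against 3 of 7 rising with at least 10 counts in every library. Spp1, the gene of osteopontin, had 0.0795, 1.05 and 2.32 CPM in Sham and 307, 324 and 46.6 CPM in Model (log2 fold change 7.64 ± 0.95, adjusted p = 0.000327, 8.58 without Sham replicate 3), with Model replicate 3 far below the other Model libraries and still 20.1-fold above the highest Sham library. Cd14, the endotoxin co-receptor, had 0.636, 0.6 and 1.2 CPM in Sham and 96.4, 75 and 99.2 CPM in Model (log2 fold change 6.8 ± 0.23, adjusted p = 3.41e-06), with the Model libraries close together. Msr1, a scavenger receptor, had 1, 0 and 7 counts in Sham and 313, 307 and 369 counts in Model, also close together in Model. Lyz2, the lysozyme of myeloid cells, was higher at the adjusted p alone (log2 fold change 0.85 ± 0.18, adjusted p = 0.0044) and a DEG without Model replicate 2.

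Genes of blood leukocytes gave a mixed picture. Of the neutrophil list, 4 of 8 genes tested rose and 0 fell (median log2 fold change 1.37, 14 listed), and 2 rose without Sham replicate 1 or Sham replicate 2. Mmp9, a metalloprotease that neutrophils carry and vessels and glia also make, had 4.77, 4.2 and 6.45 CPM in Sham and 83.6, 76.8 and 104 CPM in Model (log2 fold change 4.1 ± 0.19, adjusted p = 5.45e-06). Il1r2, the decoy receptor for interleukin-1, was at least 30.0-fold higher (adjusted p = 2.73e-05), and Cxcr2, a chemokine receptor of neutrophils, rose (log2 fold change 1.86 ± 0.56, adjusted p = 0.0225, 2.57 without Sham replicate 3), a call lost without Sham replicate 1, Sham replicate 2 or Model replicate 2. Csf3r, the receptor of granulocyte growth factor, had a log2 fold change of -0.56 (adjusted p = 0.117). S100a8 and S100a9, the most abundant messengers of blood neutrophils, were looked up after the values of the list were seen. S100a8 had 1.83, 0.75 and 1.63 CPM in Sham and 0.38, 1.42 and 3.26 CPM in Model, and S100a9 had 3.58, 0.975 and 3.01 CPM in Sham and 0.532, 2.76 and 6.19 CPM in Model, which overlapped in each case. Of 12 lymphocyte markers 9 were in the count table, and 0 of those had enough counts to be tested. Cd3e, part of the T cell receptor complex, had 1, 0 and 0 counts in Sham and 2, 3 and 2 counts in Model.

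Markers of tissue that lies next to the cortex also differed between libraries. Of striatal neuron markers, 0 of 9 genes tested rose and 9 fell (median log2 fold change -2.97, 12 listed). Ppp1r1b, the dopamine-regulated phosphatase inhibitor, had 141, 437 and 339 CPM in Sham and 45.3, 70.9 and 116 CPM in Model (log2 fold change -1.98 ± 0.44, adjusted p = 0.00576). Summed over the list the level was 437 to 1169 CPM in Sham, lowest in Sham replicate 1, and 174 to 268 CPM in Model. Syndig1l had 2.7, 74.9 and 50.1 CPM in Sham and 0.911, 2.59 and 2.36 CPM in Model, so that Sham replicate 1 lay next to Model. Of meningeal and fibroblast genes, 0 of 11 genes tested rose and 4 fell (median log2 fold change -0.89, 12 listed), and 8 fell without Model replicate 2, with sums of 69.7 to 198 CPM in Sham and 38.1 to 113 CPM in Model. Slc22a6 was at least 11.7-fold lower in Model, and Slc6a13 (-4.63, -5.37 without Model replicate 2) and Fmod (-3.29, -4.08 without Model replicate 3) fell. Igf2 fell with ranges that overlapped (log2 fold change -1.61 ± 0.49, adjusted p = 0.0224), a call lost without Sham replicate 2 or Model replicate 1. Col1a2 had a log2 fold change of -0.71 (adjusted p = 0.206) and was a DEG without Model replicate 2 (-1.38). Of choroid plexus and ependymal genes 2 of 3 genes tested rose and 0 fell (median log2 fold change 1.95, 12 listed). Those were Kl (4.31), the gene of klotho, and Cfap70 (1.95), a cilium protein, while Ttr, the defining transcript of choroid plexus, had 0, 2 and 0 counts in Sham and 0, 3 and 1 counts in Model. With no filter beyond 1 count, 3 of 10 rose and 2 fell, at a median of -0.46. The genes too scarce to be tested went both ways. Dnah6 had 27, 3 and 9 counts in Sham and 2, 0 and 0 counts in Model. Ccdc153 had 28, 11 and 7 counts in Sham and 10, 7 and 4 counts in Model. Clic6 had 0, 0 and 0 counts in Sham and 14, 7 and 18 counts in Model. Red blood cell genes summed to at most 11.8 CPM in any library, and of the 2 tested, Ahsp (-0.97, adjusted p = 0.0857) and Hba-a3 (-1.46, -0.53 without Sham replicate 1, adjusted p = 0.0914), 0 passed, though Hba-a3 was a DEG without Sham replicate 3. The part of striatal and meningeal tissue in the differences of other gene lists was not tested.

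Vessel genes did not move as a block. Of endothelial genes, 1 of 12 genes tested rose and 3 fell (median log2 fold change 0.37, 15 listed), and without Model replicate 3 the median was -0.14 with 2 rising. Without Sham replicate 1, Sham replicate 2 or Model replicate 2 the count rising was also 2, at medians of 0.33, 0.34 and 0.50. Kdr, the main receptor of vascular endothelial growth factor, had 15.7, 20.1 and 12.5 CPM in Sham and 94.2, 119.8 and 134 CPM in Model (log2 fold change 2.84 ± 0.20, adjusted p = 2.60e-05). Mfsd2a, the lipid carrier that keeps transport across the blood-brain barrier low, had 30.6, 35.5 and 41.9 CPM in Sham and 8.73, 5.76 and 11.7 CPM in Model (log2 fold change -2.04 ± 0.25, adjusted p = 0.000289). The groups did not overlap for either, and Model replicate 3 had the highest level of Model in both. Emcn, a surface sialomucin, fell (-1.25), and Ly6e fell (log2 fold change -1.07 ± 0.12, adjusted p = 0.000187), under the fold threshold without Model replicate 1. The abundant carriers Slc2a1, for glucose (log2 fold change 0.38 ± 0.12, adjusted p = 0.024), and Slc7a5, for large amino acids (log2 fold change 1.00 ± 0.16, adjusted p = 0.00119), were higher at the adjusted p alone, Slc7a5 at the edge of the fold threshold and a DEG without Sham replicate 1, Sham replicate 2, Model replicate 2 or Model replicate 3. Of pericyte and smooth muscle genes, 1 of 12 genes tested rose and 3 fell (median log2 fold change -0.33, 12 listed), and without Model replicate 3, 2 rose and 5 fell. Vtn (-2.6), vitronectin, and Rgs5 (-2.04), both pericyte markers, fell, Des, the gene of desmin, rose (1.42), and Pdgfrb, the receptor that defines pericytes, had a log2 fold change of -0.36 (adjusted p = 0.093) and was lower at the adjusted p without Model replicate 3 (log2 fold change -0.53, adjusted p = 0.0107). Notch3 fell (log2 fold change -1.08 ± 0.21, adjusted p = 0.00273), under the fold threshold without Model replicate 1.

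**Figure D3:**
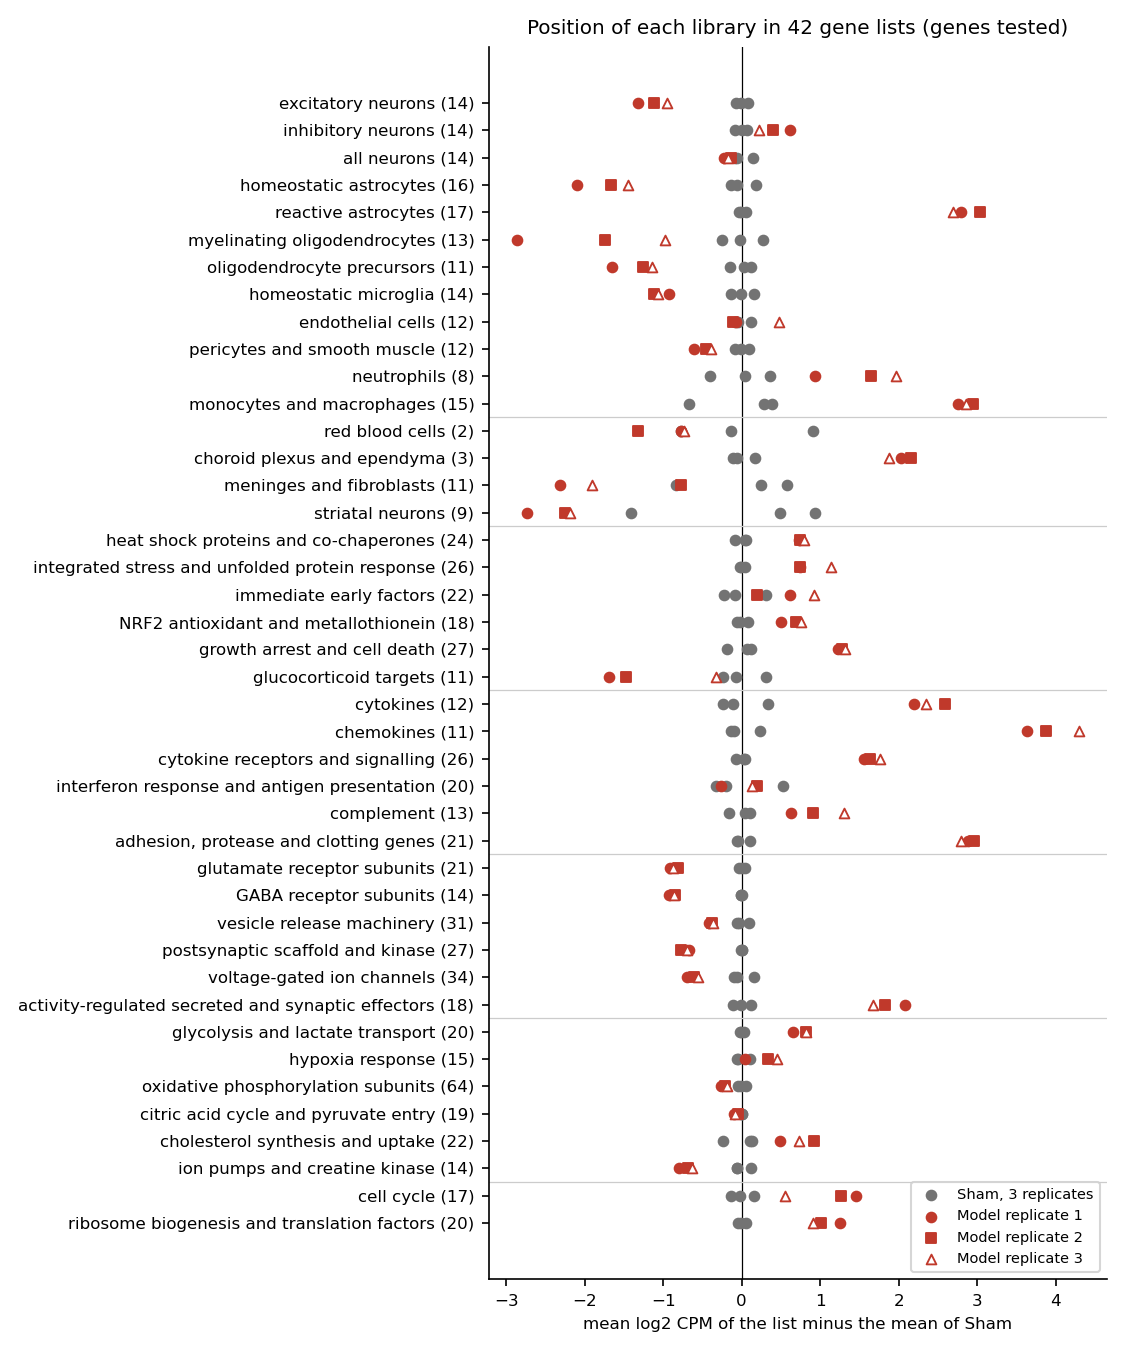
For 42 gene lists (number of genes tested in brackets), the mean log2 CPM of the list in each library minus the mean of the Sham libraries, Sham in grey and Model in red. Model replicate 3 (open triangle) was the Model library nearest to Sham in 20 lists, Model replicate 1 in 16 and Model replicate 2 in 6.

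Heat shock genes rose in part, and 1 small chaperone exceeded the others. Of the list, 8 of 24 genes tested rose and 0 fell (median log2 fold change 0.57, 26 listed). Hspb1, the small heat shock protein HSP27, had 4.29, 7.43 and 7.48 CPM in Sham and 278, 279 and 317 CPM in Model (log2 fold change 5.51 ± 0.20, adjusted p = 3.41e-06). The lowest Model library was 37.2-fold above the highest Sham library, and the Model libraries lay close together. Cryab, alpha-B crystallin, rose (log2 fold change 1.59 ± 0.20, adjusted p = 0.000324), and Bag3, a co-chaperone of autophagy, rose (log2 fold change 1.32 ± 0.25, adjusted p = 0.00284), at a log2 fold change of 0.98 and so under the threshold without Model replicate 3. Hspa8, the constitutive chaperone, had 2101, 2138 and 2193 CPM in Sham and 2372, 2356 and 2559 CPM in Model (log2 fold change 0.18 ± 0.078, adjusted p = 0.0822), and Hsp90aa1 was higher at the adjusted p alone (log2 fold change 0.70 ± 0.08, adjusted p = 0.000217).

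Heat shock factor binds repeats of GAA and its complement, and promoters of the list were searched for 2 such repeats in opposite directions (GAANNTTC or TTCNNGAA, either strand). The window was the 250 bases before the gene start in RefSeq's GRCr8 annotation, a later build than the mRatBN7.2 of the counts. Of 20 promoters matched to tested list genes, 13 (65%) held the motif, as did all 7 matched promoters of genes that rose, against 13.2% of all 27457 promoters and 9.53% of the 10446 promoters of tested genes. The stretches of Hspb1 (minus strand, chr12:26432373-26432460) and Bag3 (plus strand, chr1:192533298-192533365) are shown because they hold the motif (in capitals) in the genes that rose and rank highest among those with it. Both are written 5′ to 3′ on the strand of the gene.
Hspb1: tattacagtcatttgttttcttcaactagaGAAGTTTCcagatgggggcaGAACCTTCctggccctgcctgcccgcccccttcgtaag
Bag3: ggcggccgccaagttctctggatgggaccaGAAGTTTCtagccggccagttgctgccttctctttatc
A match is a description of the letters and not a measured binding site.

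The integrated stress and unfolded protein responses, by which cells slow translation and raise amino acid supply through ATF4, were raised in many members. In this list 13 of 26 genes tested rose and 2 fell (median log2 fold change 0.92, 28 listed). Atf4 itself had 161, 185 and 168 CPM in Sham and 444, 414 and 486 CPM in Model (log2 fold change 1.39 ± 0.096, adjusted p = 2.60e-05). Atf3, a stress-induced repressor, had 9.07, 0.45 and 0.43 CPM in Sham and 23, 24.5 and 52.9 CPM in Model (log2 fold change 3.33 ± 0.90, adjusted p = 0.0136, 6.21 without Sham replicate 1). Trib3, which is switched on by ATF4, had 1, 6 and 1 counts in Sham and 24, 26 and 43 counts in Model (log2 fold change 3.5 ± 0.63, adjusted p = 0.00204, 4.75 without Sham replicate 2), so that its rise rests on few reads. Mthfd2, of mitochondrial folate metabolism (log2 fold change 2.12 ± 0.17, adjusted p = 4.05e-05), rose evenly. Ddit4, an inhibitor of mTOR signalling that is also a glucocorticoid target (log2 fold change -2.12 ± 0.43, adjusted p = 0.00368, -2.77 without Model replicate 3), and Psat1, of serine synthesis (-1.89), fell. Hspa5, the main chaperone of the endoplasmic reticulum, was higher at the adjusted p alone (log2 fold change 0.81 ± 0.11, adjusted p = 0.000391).

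Immediate early factors were divided. Of these, 7 of 22 genes tested rose and 3 fell (median log2 fold change 0.69, 24 listed). Myc, a driver of growth, had 4.29, 1.73 and 2.32 CPM in Sham and 47.6, 34 and 36.6 CPM in Model (log2 fold change 3.82 ± 0.31, adjusted p = 4.36e-05). Maff, a small partner of stress transcription factors, had 2.39, 2.1 and 3.44 CPM in Sham and 26, 22.5 and 37.1 CPM in Model (log2 fold change 3.44 ± 0.27, adjusted p = 4.04e-05), and Ier3 rose (2.24). Jun, the AP-1 subunit, had 114, 100.4 and 83 CPM in Sham and 488, 359 and 423 CPM in Model (log2 fold change 2.1 ± 0.15, adjusted p = 3.05e-05). All of these were higher in every Model library than in any Sham library, while the orphan receptors of the same response fell. Nr4a2 had 67.4, 79.5 and 47.7 CPM in Sham and 6.15, 7.6 and 18.2 CPM in Model (log2 fold change -2.61 ± 0.38, adjusted p = 0.000726, -3.24 without Model replicate 3) and Nr4a1 fell as well (-1.6). Arc, the synaptic plasticity gene, fell (log2 fold change -1.12 ± 0.28, adjusted p = 0.00947), under the fold threshold without Sham replicate 2 or Model replicate 2. Egr1 had a log2 fold change of -0.41 (adjusted p = 0.376).

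For ATF4, the letters TGATGNAA were found in 3 of 25 promoters of the stress list (12%), against 3.27% of all promoters and 1.77% of those of tested genes. Of the 12 matched promoters of genes that rose, 2 held them, those of Trib3 and Chac1. The cAMP response element TGACGTCA was found in 4 of 15 promoters of immediate early factors, against 1.70% and 2.89%. Of the 4 matched promoters of genes that rose, 2 held it, those of Ier2 and Maff. The 2 stretches below hold these motifs in capitals, for Trib3 (minus strand, chr3:161275534-161275584, GRCr8, where the motif is read on the opposite strand) and for Maff (plus strand, chr7:112792706-112792773, GRCr8), the genes of each list with the motif and the largest rise.
Trib3: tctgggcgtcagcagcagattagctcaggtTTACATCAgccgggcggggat
Maff: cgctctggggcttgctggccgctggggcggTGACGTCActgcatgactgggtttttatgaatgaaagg
By the same search, the antioxidant response element TGACNNNGC was in 6 of 14 promoters of the NRF2 list against 10.2% of all promoters, and in 0 of 3 of those that rose. The NF-kappaB site GGANTTTCC was in 1 of 7 chemokine promoters, that of Cxcl1 (1.06% of all), and the sterol regulatory element TCACNCCAC in 0 of 15 promoters of cholesterol genes (0.976% of all).

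Antioxidant genes under NRF2 rose in part. Of the list 5 of 18 genes tested rose and 1 fell (median log2 fold change 0.29, 23 listed). Hmox1, which breaks down haem, had 7.79, 6.98 and 6.79 CPM in Sham and 252, 326 and 339 CPM in Model (log2 fold change 5.41 ± 0.15, adjusted p = 3.29e-06), with the lowest Model library 32.4-fold above the highest Sham library. Osgin1 (log2 fold change 2.95 ± 0.49, adjusted p = 0.00132) and Txnrd1, thioredoxin reductase (log2 fold change 1.57 ± 0.096, adjusted p = 1.62e-05), rose, Mt3, the brain metallothionein, fell (-1.3), and Fth1, of ferritin (-0.13, adjusted p = 0.611), and Sod2, of mitochondria (0.33, adjusted p = 0.0998), did not pass, though Fth1 was lower at the adjusted p without Model replicate 3 (log2 fold change -0.42, adjusted p = 0.0218). Most growth arrest and cell death genes rose. There, 16 of 27 genes tested rose and 0 fell (median log2 fold change 1.11, 28 listed). Gadd45b had 4.29, 7.73 and 9.02 CPM in Sham and 91.6, 105 and 94.3 CPM in Model (log2 fold change 3.79 ± 0.23, adjusted p = 1.48e-05), and its relatives Gadd45g (3.99) and Gadd45a (3.01), which respond to DNA damage and stress, rose too. Of the abundant survival genes, Mcl1 was higher at the adjusted p alone (0.60, adjusted p = 0.000586) and Bcl2l1 did not pass (-0.15, adjusted p = 0.363).

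Among glucocorticoid targets 5 genes fell, and Model replicate 3 lay nearer to Sham in the list mean than the other Model libraries. Of this list 1 of 11 genes tested rose and 5 fell (median log2 fold change -1.04, 12 listed), 7 fell without Model replicate 3, and 3 fell without any 1 of the other 5 libraries. Relative to the Sham mean, the list mean stood at -1.69, -1.47 and -0.32 on the log2 scale in Model replicates 1 to 3, a mean over members that went both ways. Sham replicates 1 to 3 stood in the same order, at -0.24, -0.073 and 0.32. Sgk1, a kinase induced by the hormone, had 153, 146 and 216 CPM in Sham and 76.4, 86.2 and 162 CPM in Model, so that Model replicate 3 alone lay within Sham (log2 fold change -0.67 ± 0.28, adjusted p = 0.0757), and Sgk1 fell without that library (log2 fold change -1.08). Sult1a1, a sulfotransferase (log2 fold change -3.66 ± 0.52, adjusted p = 0.000608, -4.64 without Model replicate 3), and Plin4, of lipid droplets (log2 fold change -2.73 ± 0.57, adjusted p = 0.00429, -3.46 without Model replicate 3), fell, with the highest Model library 4.03-fold and 2.71-fold below the lowest Sham library, in that order, Errfi1, a brake on growth factor receptors, rose (1.37), and Klf9 did not pass (-0.29, adjusted p = 0.14) but was lower at the adjusted p without Model replicate 3 (log2 fold change -0.42, adjusted p = 0.0387).

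Inflammatory ligands included many genes with next to no reads in Sham. Of chemokines, 8 of 11 genes tested rose and 2 fell (median log2 fold change 6.56, 21 listed). The count rested on the filter: 10 of 20 rose and 2 fell with no filter beyond 1 count, and 1 of 4 rose and 2 fell with at least 10 counts in every library. With genes near 0 reads set at their lower bound the median was 4.43. Beside Ccl2, Ccl7 had 2, 3 and 0 counts in Sham and 573, 1228 and 507 counts in Model and Cxcl3, a neutrophil chemokine, had 0, 0 and 0 counts in Sham and 76, 29 and 90 counts in Model, at least 21.5-fold higher. Chemokines that the resting brain makes were lower. Cxcl12, which holds cells in place in vessels and meninges, had 155, 165 and 151 CPM in Sham and 39.5, 50.1 and 47.2 CPM in Model (log2 fold change -1.78 ± 0.11, adjusted p = 1.58e-05), Cxcl14 fell (-1.41), and Cx3cl1, the neuronal ligand for microglia, was lower at the adjusted p alone (log2 fold change -0.66 ± 0.093, adjusted p = 0.000599). Of cytokines, 7 of 12 genes tested rose and 1 fell (median log2 fold change 2.54, 20 listed), against 9 of 16 rising with no filter beyond 1 count and 1 of 5 with at least 10 counts in every library. Lif, of the interleukin-6 family like Il11, had 0.795, 0.525 and 0 CPM in Sham and 125, 71.4 and 31.4 CPM in Model (log2 fold change 7.36 ± 0.73, adjusted p = 0.000117, 8.02 without Sham replicate 1), with Model replicate 3 the lowest of Model. Il1rn, the interleukin-1 receptor antagonist, rose (log2 fold change 4.5 ± 0.46, adjusted p = 0.000134), Ctf1, the gene of cardiotrophin, fell (-2.0), and Il33, a nuclear alarm cytokine, did not pass (-0.34, adjusted p = 0.07). Tnf, looked up after the list was seen, was not tested and had 8, 13 and 2 counts in Sham and 6, 8 and 35 counts in Model.

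Most receptors and signal carriers for such ligands rose. Of that list 16 of 26 genes tested rose and 0 fell (median log2 fold change 1.3, 26 listed). Socs3, the feedback inhibitor of STAT3, had 3.9, 2.48 and 2.49 CPM in Sham and 177, 151 and 129 CPM in Model (log2 fold change 5.68 ± 0.21, adjusted p = 3.41e-06). Tnfrsf12a, the receptor of TWEAK, had 1.19, 1.8 and 0.43 CPM in Sham and 52.7, 40.2 and 41.2 CPM in Model (log2 fold change 5.25 ± 0.33, adjusted p = 1.83e-05). The lowest Model library exceeded the highest Sham library 33.1-fold and 22.3-fold, in that order. Csf2rb (4.45), a shared receptor chain for myeloid growth factors, rose, and Il6st, the signalling chain of the interleukin-6 family, was higher at the adjusted p alone (log2 fold change 0.80 ± 0.078, adjusted p = 0.000105). Of interferon and antigen presentation genes, 2 of 20 genes tested rose and 3 fell (median log2 fold change 0.17, 30 listed), shares close to those of all genes, and 1 rose without Sham replicate 3. Irf1 rose (log2 fold change 1.56 ± 0.22, adjusted p = 0.00054), and Tap1, a peptide pump, rose (log2 fold change 1.07 ± 0.31, adjusted p = 0.0176), a call lost without Sham replicate 2, Sham replicate 3 or Model replicate 2. The antiviral genes Rsad2 (-2.28) and Mx2 (-1.5) fell, as did Irf7 (log2 fold change -2.18 ± 0.80, adjusted p = 0.0457, -0.56 without Sham replicate 2), a call lost without Sham replicate 2, Model replicate 1, Model replicate 2 or Model replicate 3, and B2m (-0.14, adjusted p = 0.518) and Stat2 (0.26, adjusted p = 0.26) did not pass. Of complement genes, 4 of 13 genes tested rose and 0 fell (median log2 fold change 0.63, 16 listed). The integrins of complement receptors led, Itgax (log2 fold change 6.72 ± 0.51, adjusted p = 3.79e-05, 8.02 without Sham replicate 1 and 6.11 without Sham replicate 2) and Itgam (log2 fold change 2.45 ± 0.30, adjusted p = 0.000311), followed by Serping1 (1.77), the C1 inhibitor. C1qa (-0.024, adjusted p = 0.926) did not pass.

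Genes of leukocyte adhesion, proteolysis and clotting were counted as 1 list, in which most rose. Of the list 15 of 21 genes tested rose and 1 fell (median log2 fold change 3.84, 25 listed). With at least 10 counts in every library, 10 of 16 rose at a median of 2.16. Mmp12, the macrophage elastase, was at least 21.8-fold higher (adjusted p = 5.34e-05), and Adamts1, a matrix protease, had 21.2, 17.6 and 16.4 CPM in Sham and 179, 253 and 229 CPM in Model (log2 fold change 3.58 ± 0.16, adjusted p = 4.82e-06). The lowest Model library of Adamts1 exceeded the highest Sham library 8.47-fold. Vcam1, an adhesion molecule for leukocytes, was the exception, with 70.0, 84.6 and 67 CPM in Sham and 10.3, 16.8 and 16.9 CPM in Model (log2 fold change -2.34 ± 0.19, adjusted p = 5.19e-05).

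**Figure D4:**
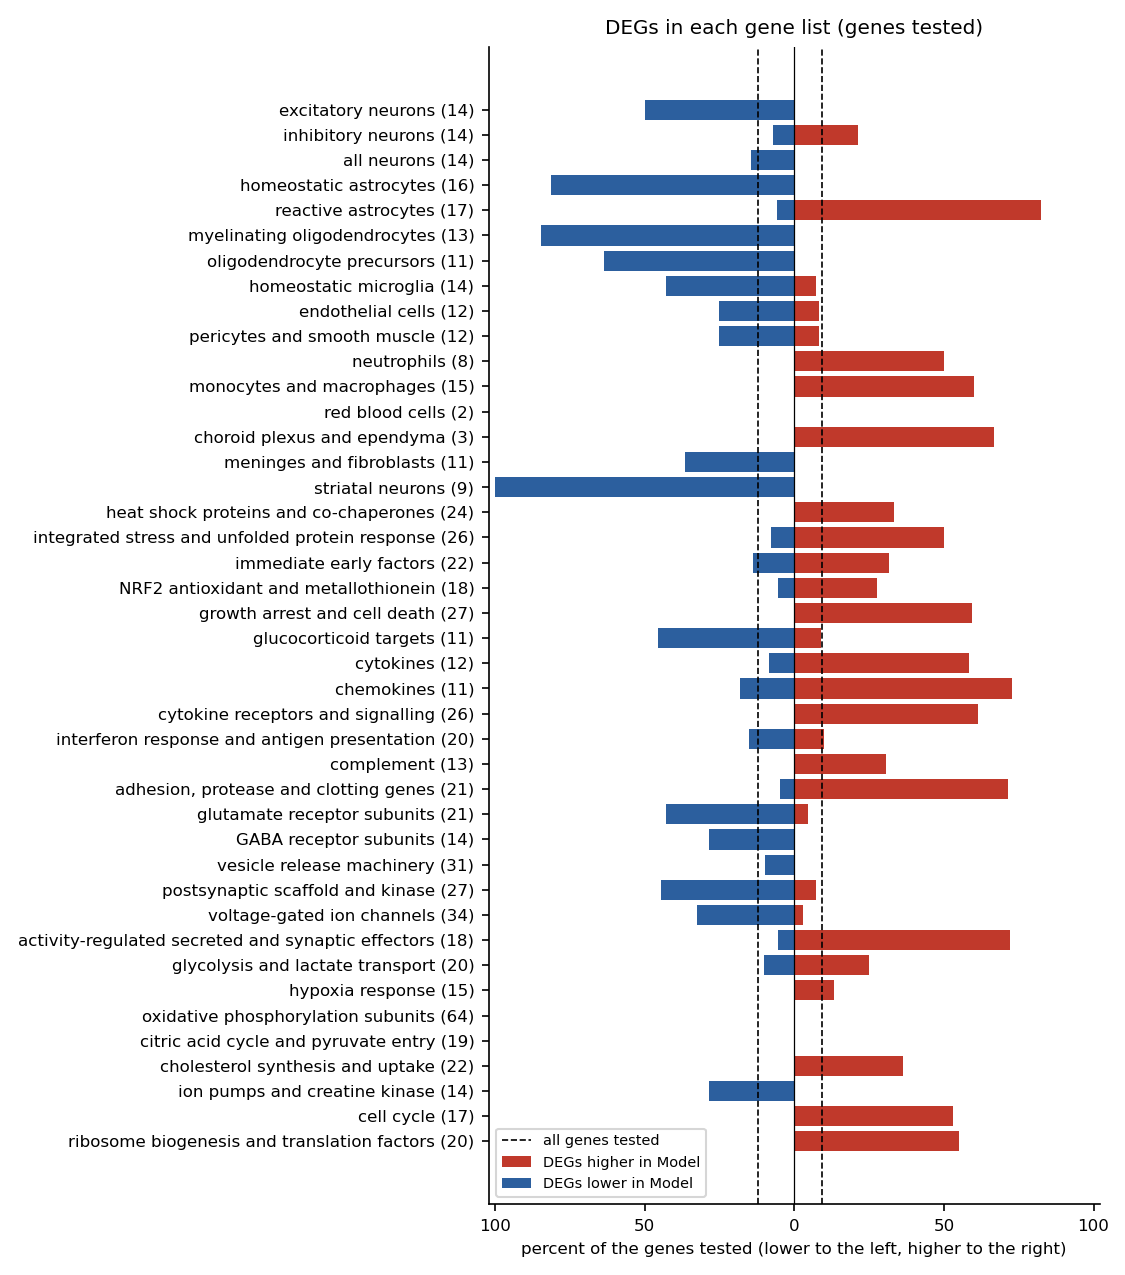
Percent of the genes tested in each of 42 lists (number in brackets) that were DEGs higher in Model (red, to the right) or lower (blue, to the left). The dashed lines give the shares over all genes tested, 9.43% and 12%.

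Most glycolytic genes were higher at the adjusted p, few of them past the fold threshold. Of glycolytic and lactate transport genes, 5 of 20 genes tested rose and 2 fell (median log2 fold change 0.51, 21 listed). At the adjusted p alone 14 were higher and 4 lower, against 27.3% and 26.6% of all genes. Slc16a3, the lactate exporter of glycolytic cells, had 1.03, 0.6 and 0.688 CPM in Sham and 5.62, 14 and 16.4 CPM in Model (log2 fold change 3.94 ± 0.47, adjusted p = 0.00028). Pfkfb3, which speeds up glycolysis, rose (log2 fold change 1.93 ± 0.14, adjusted p = 2.85e-05), and Hk3, a hexokinase of myeloid cells, was at least 18.9-fold higher. Pkm, pyruvate kinase, had 1060, 1014 and 1186 CPM in Sham and 1988, 2026 and 1954 CPM in Model (log2 fold change 0.87 ± 0.087, adjusted p = 0.000117), higher in each Model library but under the fold threshold, and Gapdh had a log2 fold change of 0.18 (adjusted p = 0.0746). Slc16a7, the neuronal lactate importer, fell (-1.18), and Ldhb, the lactate dehydrogenase of oxidative cells, fell (log2 fold change -1.07 ± 0.14, adjusted p = 0.000431), under the fold threshold without Model replicate 1. Of hypoxia response genes, 2 of 15 genes tested rose and 0 fell (median log2 fold change 0.21, 17 listed), with 9.43% of all genes higher and 12% lower, and without Model replicate 3 the median was -0.014. Hif1a, the oxygen-regulated factor itself, had 101, 111 and 105 CPM in Sham and 376, 364 and 265 CPM in Model (log2 fold change 1.67 ± 0.14, adjusted p = 5.07e-05), Adm, the vessel-widening peptide adrenomedullin, rose (log2 fold change 2.61 ± 0.55, adjusted p = 0.00429, 1.99 without Model replicate 3), and Epas1, a related factor, had 270.0, 319.9 and 306 CPM in Sham and 158, 152 and 317 CPM in Model (log2 fold change -0.51 ± 0.26, adjusted p = 0.129). Model replicate 3 alone lay within Sham for Epas1, which was lower at the adjusted p without it (log2 fold change -0.94, adjusted p = 0.00012).

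Of 64 tested subunits of oxidative phosphorylation (74 listed) 0 rose and 0 fell at the fold threshold. At the adjusted p alone, 33 were lower and 3 higher, and their median log2 fold change was -0.26. Atp5f1b, a catalytic subunit of ATP synthase, had 1155, 1212 and 1147 CPM in Sham and 1127, 1236 and 1177 CPM in Model (log2 fold change 0.011 ± 0.078, adjusted p = 0.917), and Atp5f1a was lower at the adjusted p alone (log2 fold change -0.24 ± 0.075, adjusted p = 0.0275). Of citric acid cycle genes, 0 of 19 genes tested rose and 0 fell (median log2 fold change -0.025, 19 listed), with Mdh1, malate dehydrogenase, not past the adjusted p (0.041, adjusted p = 0.687). Genes that maintain ion gradients fell in part. Of pumps and creatine kinases 0 of 14 genes tested rose and 4 fell (median log2 fold change -0.62, 16 listed). Slc8a2, a sodium-calcium exchanger (-1.91), and Atp2b2, a calcium pump of the cell membrane (-1.67), fell, and Atp1b1, a sodium pump subunit, did not pass (0.065, adjusted p = 0.611).

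Cholesterol synthesis and uptake genes rose in part, with 0 falling. Of the list 8 of 22 genes tested rose and 0 fell (median log2 fold change 0.61, 24 listed). Insig1, the sterol sensor, had 70.8, 112 and 92.5 CPM in Sham and 225, 291 and 289 CPM in Model (log2 fold change 1.55 ± 0.18, adjusted p = 0.00021), with Model above Sham in every library, and Hmgcs1, an early enzyme, was higher at the adjusted p alone (log2 fold change 0.45 ± 0.13, adjusted p = 0.0174). Cell cycle genes rose in part, from low levels. Of these 9 of 17 genes tested rose and 0 fell (median log2 fold change 1.03, 18 listed), and 5 rose without Sham replicate 1 or Model replicate 1. Relative to Sham, the list mean stood at 1.46, 1.26 and 0.56 on the log2 scale in Model replicates 1 to 3. Mki67 and Top2a, chosen after their values were seen, lay inside the Sham range in Model replicate 3. Mcm5, of the replication helicase, had 0.716, 0.9 and 1.03 CPM in Sham and 13.6, 11.2 and 4.31 CPM in Model (log2 fold change 3.45 ± 0.47, adjusted p = 0.000512), and Mcm3 (2.23) and Mcm4 (1.57) rose as well. Rrm2, which supplies deoxynucleotides, rose (log2 fold change 1.8 ± 0.50, adjusted p = 0.0158), a call lost without Sham replicate 1, Model replicate 1 or Model replicate 2, and so did Pcna (log2 fold change 1.02 ± 0.10, adjusted p = 0.000129), under the fold threshold without Sham replicate 1 or Model replicate 1. Genes of ribosome assembly and translation were higher in Model without exception among those listed. Of that list 11 of 20 genes tested rose and 0 fell (median log2 fold change 1.01, 20 listed), and all 20 were higher at the adjusted p alone. Eif1a, an initiation factor, had 44.1, 38 and 38.6 CPM in Sham and 205, 168 and 141 CPM in Model (log2 fold change 2.09 ± 0.15, adjusted p = 2.70e-05). Fbl, the nucleolar protein fibrillarin (log2 fold change 1.53 ± 0.15, adjusted p = 0.000103), and Eif4ebp1, a brake on initiation (1.53), rose, and the abundant Ncl (0.92, adjusted p = 0.00011) and Eef1a1 (0.38, adjusted p = 0.0114) stayed under the fold threshold.

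Counts of DEGs in the lists were also taken without Model replicate 3. Of excitatory neuron genes 0 rose and 8 fell (median -1.14), of homeostatic astrocyte genes 0 rose and 13 fell (median -1.82), and of reactive astrocyte genes 14 rose and 0 fell (median 3.03). Of homeostatic microglial genes 0 rose and 6 fell (median -0.77), and of monocyte and macrophage genes 9 rose and 0 fell (median 2.42). Of postsynaptic genes 2 rose and 11 fell (median -0.77), of glutamate receptor subunits 1 rose and 9 fell (median -0.82), and of activity-regulated effectors 13 rose and 1 fell (median 2.26). Among stress and inflammatory lists, 6 rose and 0 fell (median 0.61) for heat shock, 12 rose and 2 fell (median 0.78) for the integrated stress list, 8 rose and 2 fell (median 5.51) for chemokines and 14 rose and 0 fell (median 1.21) for cytokine receptors. Of oxidative phosphorylation subunits 0 rose and 0 fell (median -0.29). Genes that rose and fell without that library numbered 14 and 1 for growth arrest and cell death, 8 and 4 for immediate early factors, 3 and 0 for neutrophils, 2 and 2 for interferon and antigen presentation and 3 and 0 for complement. They numbered 0 and 3 for GABA receptor subunits, 0 and 4 for vesicle release and 1 and 12 for voltage-gated ion channels. For cholesterol synthesis they numbered 7 and 0, for cell cycle 11 and 0 and for ribosome biogenesis 12 and 0. In the other lists tested the counts were unchanged without Model replicate 3.

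At the 1279 genes that were DEGs higher in Model without replicate 3 and tested with it, the shift of that library from Sham was a median of 0.838 of that of Model replicates 1 and 2 on the log2 scale, and 98.5% of the genes moved the same way in it. At the 1769 lower DEGs the median was 0.715, with 97.8% moving the same way. These genes were chosen on the other Model libraries, which by itself makes the shift of the library left out smaller, so the ratios are a description. In myelin genes the list means of Model replicates 1 to 3 lay at -2.86, -1.74 and -0.97 relative to the Sham mean on the log2 scale. Sham replicates 1 to 3 stood in the same order, at -0.25, -0.026 and 0.27. GABA receptor subunits, at -0.93, -0.84 and -0.86 in Model, showed no such order there. For complement, at 0.63, 0.90 and 1.31, and for the integrated stress list, at 0.74, 0.75 and 1.14, Model replicate 3 was the highest of Model. In each of these lists Sham replicate 3 was the lowest of Sham. These positions of single libraries were not tested.

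**Figure D5:**
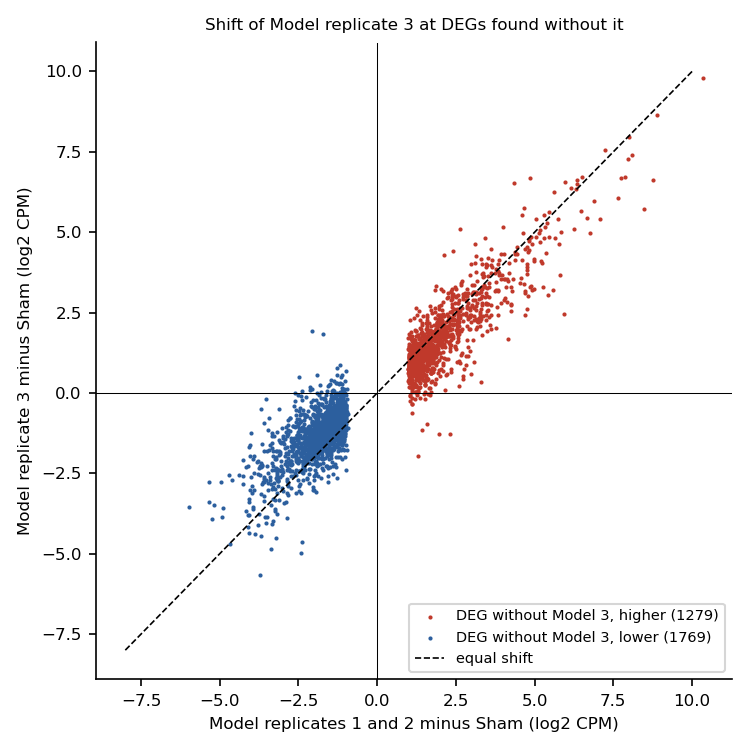
Shift from the Sham mean on the log2 CPM scale at genes called without Model replicate 3, with the mean of Model replicates 1 and 2 on the horizontal axis and Model replicate 3 on the vertical axis, red for 1279 genes higher and blue for 1769 lower. The dashed line marks equal shift, and the median ratio of the shifts was 0.838 for the higher and 0.715 for the lower genes.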

How the data were processed

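RNA of the cerebral cortex from 3 Sham and 3 Model rats was used, with groups taken from the deposited labels and 1 library per rat. Per the labels, poly(A) RNA was made into strand-marked libraries with molecular identifiers in the adapters and sequenced as read pairs of 150 bases. The authors deposited whole-number raw counts per gene symbol, without normalisation or pooling of replicates. The submitters' processing notes name the mRatBN7.2 build, STAR 2.7.10a, featureCounts 2.0.1 and Salmon 1.9.0. The annotation release, the strand setting of the counting and whether the identifiers were used are not given in the sources used here, and limits from counts hold for counting error alone. Genes with near-identical copies (Gapdh, Fth1, Eef1a1, Hba-a3, ribosomal protein genes) or antisense partners have uncertain counts.

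The 6 libraries were fitted with edgeR 4.0.16 in R 4.3.3 (TMM normalisation, filterByExpr, quasi-likelihood test, Benjamini-Hochberg adjustment over all genes tested). DEGs passed an adjusted p of 0.05 and a log2 fold change of 1 in size, which are the thresholds of the study's methods. For a gene with 3 counts or fewer in every library of a group, the fold was computed against the mean CPM of 3 counts per library and given as a lower bound. List means, principal components and shifts of single libraries were computed from log2 CPM (prior count 2). The model was tested on simulated data with known changes before use. Python 3.11.15 and matplotlib 3.10.9 served for figures, and promoter windows came from RefSeq by gene symbol.

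The libraries compared and the gene lists were chosen with earlier results of these data known. Genes are named when they were among the 10 largest rises or falls at a mean of at least 5 CPM with groups that did not overlap, among the up to 3 largest rises or falls of a list at a mean of at least 1 CPM under the same condition, or among the 2 most abundant tested members of a list, and a few others are named as chosen after their values were seen. Some genes that meet this rule are not reported here. Alternatives were DESeq2 1.42.0, its size factors, library size alone, a filter of at least 10 counts in every library, no filter beyond 1 count, all 12 libraries in 1 fit, the replicate number as a block, and leaving out each library in turn.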

Additional observations from a re-analysis of the deposited data

How the results depend on the processing

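The count of 2765 DEGs was 2751 with the Wald test of DESeq2, 2767 with its size factors, 2717 with library size alone, 2957 with no filter beyond 1 count, 2253 with at least 10 counts in every library, 2860 with all 12 libraries in 1 fit and 2756 with the replicate block, and 2511 to 3133 without any 1 library. With library size alone the median log2 fold change of all genes was 0.083, and 49.6% of the DEGs were higher against 43.9%. Same-numbered Sham and Model libraries deviated together with correlations of 0.121, 0.071 and 0.065, so the numbers were not taken to pair rats, although each library correlated best with its own number. With the replicate block 1193 genes were higher and 1563 lower, and 2687 of the DEGs were called again. Of the genes named, 7 calls were lost with library size alone, 3 with all 12 libraries and 2, Cd109 and Irf7, with the replicate block. Apart from leaving out a library, counts of list genes that moved by more than 1.5 times were, with all 12 libraries, 5 myelin genes falling against 11, with library size alone, 3 glucocorticoid targets falling against 5, and, with at least 10 counts in every library, rises of 1 neutrophil gene against 4, 3 monocyte and macrophage genes against 9, 1 cytokine against 7, 1 chemokine against 8 and 3 glycolytic genes against 5, and falls of 1 meningeal gene against 4 and 3 glucocorticoid targets against 5. Lists with 3 or fewer calls under both settings are left out of this. List medians that moved by more than the spread between replicates were the following. With at least 10 counts in every library, which drops genes near 0 in Sham, medians were 2.85 (reactive astrocytes), 0.85 (monocytes and macrophages), 1.08 (choroid plexus), 0.14 (cytokines), -1.04 (chemokines, a change of sign), 1.09 (cytokine receptors) and 2.16 (adhesion and proteases). With no filter they were -0.46 (choroid plexus, a change of sign), 3.35 (chemokines) and 3.7 (adhesion and proteases), and with all 12 libraries 1.07, 5.4 and 3.57 for the same lists. With library size alone they were -0.76 (glutamate receptors), -0.73 (GABA receptors), -0.72 (postsynaptic genes), -0.19 (oxidative phosphorylation) and 0.046 (citric acid cycle, a change of sign). Without any 1 library, medians ranged from -1.14 to -0.81 for excitatory neurons, -0.26 to 0.00027 for all neurons (above 0 without Sham replicate 3), 2.9 to 3.13 for reactive astrocytes, -0.96 to -0.63 for microglia, -0.14 to 0.51 for endothelial cells (below 0 without Model replicate 3), -0.65 to -0.27 for pericytes, 1.11 to 3.22 for choroid plexus, 1.04 to 1.31 for growth arrest, 5.51 to 7.56 for chemokines, 3.59 to 3.84 for adhesion and proteases, -0.85 to -0.76 for GABA receptors and -0.87 to -0.77 for postsynaptic genes. Except where the filter dropped genes, the cause of these moves was not tested. With 3 rats per group and no stated time after the stroke, genes under about 3 counts per library, such as most lymphocyte markers, cannot be compared.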

Other observations

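Of the 101 genes at which Model replicate 3 lay inside the Sham range while Model replicates 1 and 2 were outside it, 37 were higher and 64 lower in those other libraries, 8 were on a list, and 83 were DEGs without Model replicate 3 against 14 with it. Rpl39, a ribosomal protein gene with near-identical copies, came close to this pattern, with 9.7, 11.3 and 9.02 CPM in Sham and 60.2, 62.4 and 11.6 CPM in Model. Its Model replicate 3 lay just above the highest Sham library and far below the other Model libraries.

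Several inflammatory genes too scarce to be tested differed between single Model libraries. Ccl20, a chemokine, had 0, 0 and 0 counts in Sham and 3, 75 and 1 counts in Model, nearly all in Model replicate 2. Csf3, the gene of granulocyte colony-stimulating factor, had 0, 0 and 0 counts in Sham and 0, 5 and 21 counts in Model, and Tnf had its highest count, 35, in the same library, Model replicate 3. Cd8a, of cytotoxic T cells, had 1, 0 and 2 counts in Sham and 14, 3 and 1 counts in Model, highest in Model replicate 1. These genes were chosen after their values were seen, and no test was run on them.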
